A study of Mus musculus with 12 samples.

Results

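Leukocyte integrins were described across the 4 vector groups of the mouse T cell leukemia line 8946. The 10 genes, Itgam, Itgal, Itgb2, Itga4, Itgb7, Itgb1, Itga6, Itgav, Itgae and Itgb3, were taken by symbol from the 23284 gene symbols measured. The set was chosen by the FPKM of Itgam, whose level was high for a T cell line and lower in the libraries with the Notch1 mutant. Those Itgam values are therefore a description and carry no test. The other 9 genes came in as integrin family members, in a list made with earlier results of these data known. Of the 10 genes, 8 averaged 1 FPKM or more and were tested among 10152 genes, and Itgae and Itgb3 fell under that filter.

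All 12 libraries came from 8946 cells, labelled as T lymphocytes of T lymphoblastic leukemia/lymphoma, that received a pair of retroviral vectors and were sorted as positive for GFP and NGFR. The combined group carried L1601P-IRES-GFP, which encodes a mutant of the receptor Notch1, together with Zmiz1-IRES-NGFR, which encodes the transcriptional coactivator Zmiz1. The Notch1-titled group carried the Notch1 mutant with the empty NGFR vector, the Zmiz1-titled group carried Zmiz1 with the empty MigR1 vector, and the control group carried both empty vectors. Each group had 3 libraries, and the vectors were the same within a group. For both single-vector groups the cell line label gives the vectors the other way round from the sample title and the column header. Notch1 stood at 33.5 to 37.2 FPKM in combined, 22.1 to 42.2 in Notch1-titled, 1.92 to 2.34 in Zmiz1-titled and 1.80 to 1.97 in control libraries, and Zmiz1 averaged 49.3 FPKM in combined, 0.212 in Notch1-titled, 70.8 in Zmiz1-titled and 0.176 in control libraries. Ngfr averaged 5.64 FPKM in combined, 72.9 in Notch1-titled, 7.43 in Zmiz1-titled and 85.2 in control libraries, so it was low in both groups labelled by title as carrying Zmiz1. The titles, which these vector genes follow, name the groups here. A single line was used. The labels do not say whether the 3 libraries of each group were separate cultures, so p-values measure only the spread between these libraries.

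FPKM is the number of fragments per length of transcript, scaled to the mapped fragments of the library, so levels of different genes can be set side by side per length. The libraries held between 14233 and 14554 genes above 0. Their relative depth could only be estimated, from 151 genes of very low FPKM. That estimate ran from 0.809 in Zmiz1-titled replicate 2 to 1.16 in Notch1-titled replicate 1. Zmiz1-titled replicate 2 and Notch1-titled replicate 3 stood apart from the rest, with mean correlations of 0.942 and 0.949 to the remaining libraries, against 0.952 to 0.957 for the other 10. All 15 T cell markers on the list passed 1 FPKM, Cd3e among them at 154 to 238 FPKM. The summed T cell list was 5887 to 6227 FPKM in combined, 6357 to 7328 in Notch1-titled, 5337 to 5689 in Zmiz1-titled and 6031 to 6289 in control libraries.

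Integrins are surface receptors made of an alpha and a beta chain, and they hold cells to other cells and to the matrix. The beta2 chain (Itgb2) is found on leukocytes, where it pairs with Itgal to form LFA-1, the receptor for the ICAM proteins, and with Itgam to form Mac-1, which is known best from monocytes, macrophages, neutrophils and natural killer cells. The chain encoded by Itga4 pairs with Itgb1 to form VLA-4, which binds VCAM-1 and fibronectin, or with Itgb7 to form the gut homing receptor that binds MAdCAM-1. Itga6 with Itgb1 binds laminins, Itgav pairs with several beta chains, Itgae with Itgb7 binds E-cadherin, and Itgb3 is the beta chain of platelets and osteoclasts. In T cells, ligand binding depends on inside-out activation, in which talin and kindlin engage the beta tail downstream of the small GTPase Rap1.

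In the GENCODE M21 annotation of GRCm38 (the build also called mm10), Itgam lies at chr7:128062640-128118491 and Itgal on the same strand of the same chromosome, at chr7:127296260-127335138. Itgb2 lies at chr10:77530252-77565708, Itga4 at chr2:79255426-79333123, Itgb7 at chr15:102215995-102231944 on the minus strand and Itga6 at chr2:71745616-71858416. All 10 are protein-coding genes, and each has 1 FPKM value per library for the whole gene. RefSeq (GRCm38.p6) promoter windows matched 5 of the 10 genes, namely Itgam, Itga4, Itgb7, Itgb1 and Itgav. The 250 bases before the RefSeq start are shown for the 3 whose levels differed most between groups, 5′ to 3′ on the gene's own strand. Itgam is chr7:128062390-128062639 (+), Itga4 is chr2:79255176-79255425 (+) and Itgb7 is chr15:102231936-102232185 (-). Capitals mark matches on either strand to GAGGAA (an ETS core, as PU.1 binds it) or TGTGGT (a RUNX core).
Itgam: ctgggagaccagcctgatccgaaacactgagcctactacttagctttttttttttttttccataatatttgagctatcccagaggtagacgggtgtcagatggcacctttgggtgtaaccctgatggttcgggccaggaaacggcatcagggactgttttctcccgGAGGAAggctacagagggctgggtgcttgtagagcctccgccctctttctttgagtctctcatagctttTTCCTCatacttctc
Itga4: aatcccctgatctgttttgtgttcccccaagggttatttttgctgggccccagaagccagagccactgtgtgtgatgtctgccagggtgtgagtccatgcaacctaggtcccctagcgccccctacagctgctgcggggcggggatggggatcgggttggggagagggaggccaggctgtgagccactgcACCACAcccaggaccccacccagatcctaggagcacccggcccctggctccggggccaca
Itgb7: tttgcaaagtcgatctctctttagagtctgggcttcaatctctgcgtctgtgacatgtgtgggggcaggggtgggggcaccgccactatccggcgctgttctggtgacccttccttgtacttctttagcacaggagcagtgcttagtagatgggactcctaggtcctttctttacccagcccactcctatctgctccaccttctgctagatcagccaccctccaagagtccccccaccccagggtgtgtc
The Itgam window held GAGGAA from base -84 to -79 and its reverse complement TTCCTC from -15 to -10. The ETS core was also in the windows of Itgav and Itgb1, which are not shown. Itgav held GAGGAA from -218 to -213 and TTCCTC from -7 to -2, and Itgb1 held GAGGAA from -9 to -4. The Itga4 window held ACCACA, the reverse complement of TGTGGT, from -60 to -55, and the Itgb7 window held neither motif. TGGGAA, the core bound by the Notch partner RBPJ, was in none of the 5 windows on either strand. Among 32851 RefSeq windows of the same length, 23.3% held GAGGAA, 14.05% held TGTGGT and 21.6% held TGGGAA, each counted on both strands. The motifs do not overlap in the windows shown, and a match is a string of letters, not a bound site.

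Itgam was among the more abundant transcripts of this line, ranking between 892 and 2002 of the 23284 symbols. It stood at 59.2, 59.1 and 61.5 FPKM in combined libraries, at 58.2, 58.0 and 50.9 in Notch1-titled libraries, at 97.2, 91.3 and 100.01 in Zmiz1-titled libraries and at 98.9, 97.7 and 102 in control libraries. The 6 libraries with the Notch1 mutant were thus the low ones, and every one of them lay below the 6 without it. The mean was 59.9 ± 1.36 FPKM in combined, 55.7 ± 4.12 in Notch1-titled, 96.2 ± 4.43 in Zmiz1-titled and 99.5 ± 2.08 in control libraries (SD, n = 3 each). On the log2(FPKM + 1) scale, Itgam differed by -0.83 between Notch1-titled and control libraries and by -0.67 between combined and Zmiz1-titled libraries. These values chose the gene set and were not tested. In bulk RNA, fewer cells with a transcript and less of it per cell cannot be told apart.

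The Zmiz1 vector was not part of that choice, and its effect on Itgam was tested with limma, with Benjamini-Hochberg adjustment over all 10152 genes. Zmiz1-titled and control libraries overlapped, with a difference of -0.05 (95% interval -0.19 to 0.09, adjusted p = 0.801). Combined libraries all lay above Notch1-titled ones, by 0.11 (95% interval -0.03 to 0.24, adjusted p = 0.736). Neither difference passed the threshold of 0.05, and the intervals still allow small ones.

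Myeloid transcripts that usually accompany Itgam were at or near 0. In the monocyte and macrophage list 9 of 11 genes stayed below 0.1 FPKM in every library, among them the growth factor receptor Csf1r (at most 0.0143), the endotoxin coreceptor Cd14 (at most 0.0250) and the lysozyme gene Lyz2 (at most 0.0669). The list summed to 2.15 to 2.59 FPKM in combined, 2.24 to 3.02 in Notch1-titled, 1.65 to 2.53 in Zmiz1-titled and 1.94 to 2.74 in control libraries, and the lysosomal gene Cd68, which T cells can also express, was its only gene with a mean of at least 1 FPKM. In the neutrophil list 4 of 10 genes were at 0 in all 12 libraries, including Elane and S100a8, and only the chemokine receptor gene Cxcr2 averaged 1 FPKM or more. That list summed to 1.97 to 2.78 FPKM in combined, 1.71 to 2.04 in Notch1-titled, 2.21 to 2.62 in Zmiz1-titled and 2.20 to 2.27 in control libraries. No gene of the natural killer list (8 genes), the B cell list (7) or the megakaryocyte list (6) reached a mean of 1 FPKM. The dendritic cell list had only Bst2 above that level, the erythroid list only Epor and the stromal list (6 genes) none. Sfpi1, which encodes PU.1, a myeloid factor known to drive Itgam in macrophages, was listed at 0 in 11 libraries and at 0.0543 FPKM in combined replicate 3.

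**Figure D1:**
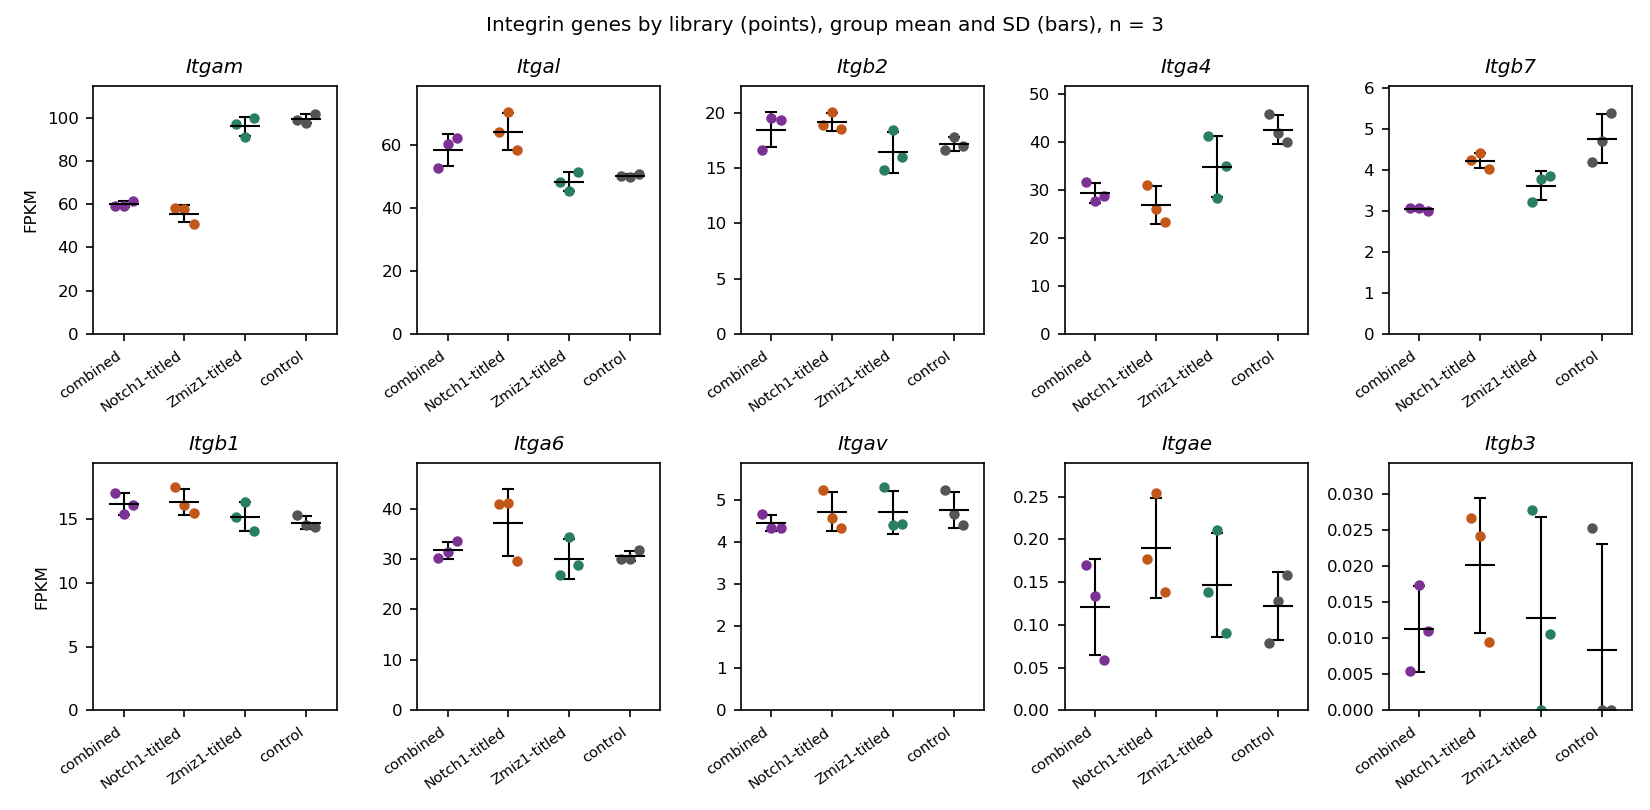
FPKM of the 10 integrin genes (vertical axis, a separate scale per gene) in each library (points) of the 4 groups, with the group mean and SD (bars, n = 3). Itgam separates the 6 libraries with the Notch1 mutant from the 6 without it, Itgb7 is lowest in combined libraries, and Itgae and Itgb3 stay under 0.3 FPKM.

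Itgal, the alpha chain of LFA-1, went the other way from Itgam. Its level was 52.7, 60.1 and 62.1 FPKM in combined, 64.1, 70.2 and 58.2 in Notch1-titled, 48.3, 45.3 and 51.2 in Zmiz1-titled and 50.0, 49.8 and 50.7 in control libraries. All 6 libraries with the Notch1 mutant lay above the 6 without it. Itgal rose in Notch1-titled against control libraries, with means of 64.2 ± 6.004 and 50.2 ± 0.477 FPKM (SD, n = 3 each), a log2 difference of 0.34 (SE 0.08) and an adjusted p of 0.0358 by limma. Between combined and Zmiz1-titled libraries the difference was 0.27 with an adjusted p of 0.118, although the groups did not overlap, and between combined and control libraries it was 0.21 (adjusted p = 0.189). Notch1-titled libraries were also higher than Zmiz1-titled ones by 0.40 (adjusted p = 0.0102, and 0.0889 with only these groups in the fit).

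The mean of both Notch1 differences, Notch1-titled minus control and combined minus Zmiz1-titled, gives the average effect of the Notch1 vector, a contrast chosen after seeing the data. For Itgal it was 0.31 (SE 0.06, limma adjusted p = 0.00621), with 61.2 ± 5.87 FPKM in the 6 libraries with the mutant and 49.2 ± 2.16 in the 6 without (SD, n = 6 each). This call held with each of the 12 libraries left out in turn, with adjusted p between 0.00378 and 0.0215. The single comparison of Notch1-titled with control libraries was less secure: it lost its call without any of the 3 control libraries, without Notch1-titled replicate 1 or 2, or without combined replicate 2 (adjusted p 0.0582 to 0.123). It was also lost after quantile normalization (0.0648) and with only these groups in the fit (0.0659).

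Itgb2, the beta chain that Itgal and Itgam share, did not pass the test in any comparison. It stood at 16.6, 19.6 and 19.3 FPKM in combined, 18.9, 20.1 and 18.6 in Notch1-titled, 14.9, 18.5 and 15.999 in Zmiz1-titled and 16.6, 17.9 and 17.0 in control libraries. All 3 Notch1-titled libraries were above all 3 control libraries, but combined and Zmiz1-titled libraries overlapped. The log2 difference was 0.15 between Notch1-titled and control libraries (limma adjusted p = 0.379), 0.16 between combined and Zmiz1-titled libraries (0.386), and 0.16 for the average Notch1 effect (0.116). Leaving out Zmiz1-titled replicate 2 brought the average effect to an adjusted p of 0.0271, and leaving out both libraries that stood apart brought it to 0.21 with an adjusted p of 0.0317.

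The balance between both beta2 alpha chains differed by the Notch1 vector. The ratio of Itgal to Itgam FPKM was 0.891, 1.02 and 1.01 in combined, 1.102, 1.21 and 1.14 in Notch1-titled, 0.497, 0.496 and 0.512 in Zmiz1-titled and 0.505, 0.510 and 0.498 in control libraries. Itgam made up 50.7 ± 1.87% of the summed alpha chain FPKM in combined, 46.5 ± 1.19% in Notch1-titled, 66.5 ± 0.401% in Zmiz1-titled and 66.4 ± 0.255% in control libraries (SD, n = 3 each). These shares contain the Itgam values that chose the set and were not tested. Itgal alone over Itgb2 was 3.15 ± 0.0693 in combined, 3.33 ± 0.183 in Notch1-titled, 2.97 ± 0.448 in Zmiz1-titled and 2.92 ± 0.119 in control libraries. The remaining beta2 partners contributed almost nothing: Itgax, the CD11c chain of dendritic cells, reached at most 0.0481 FPKM, and Itgad at most 0.147. In the fit without the filter Itgad was called lower in Notch1-titled than in control libraries (limma adjusted p = 0.0319). It was not called between combined and Zmiz1-titled libraries (0.829). Its average Notch1 effect was called in that fit (0.0445), with overlapping sets of libraries, and its values lay near 0.

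**Figure D2:**
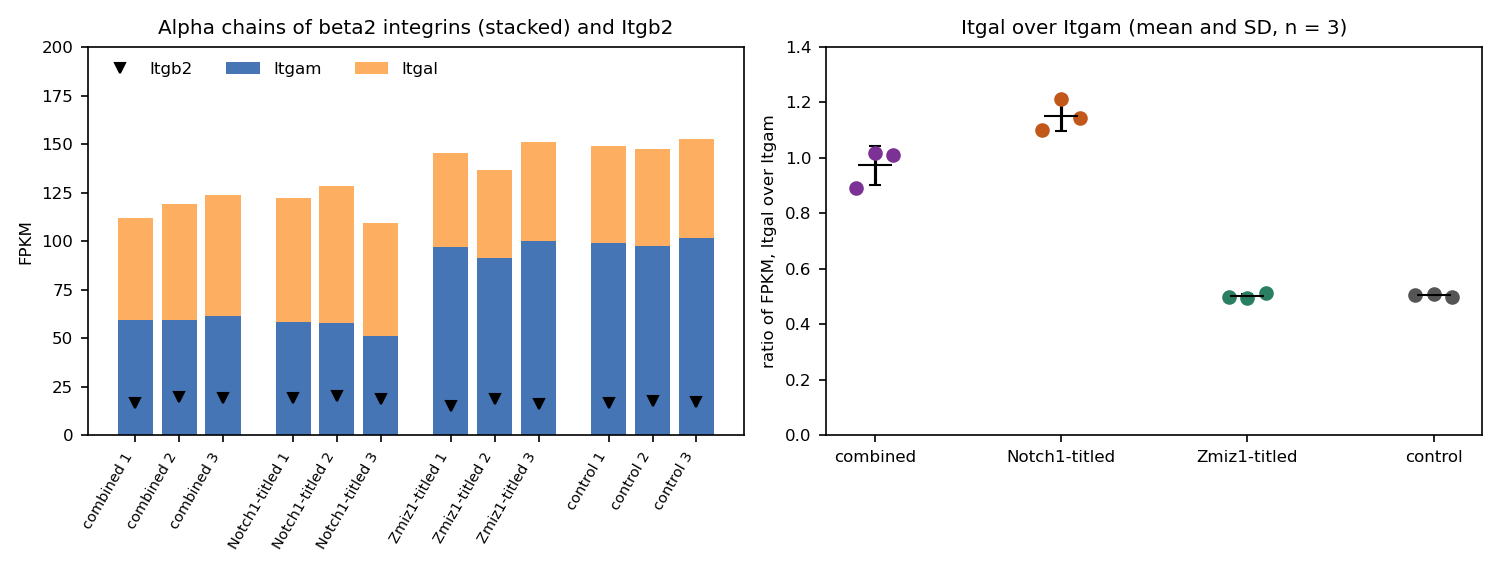
Left, FPKM of Itgam and Itgal stacked per library, with Itgb2 as a triangle. Right, the ratio of Itgal to Itgam per library (points) with mean and SD (n = 3); it lies between 0.891 and 1.21 in libraries with the Notch1 mutant and between 0.496 and 0.512 in those without.

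Itga4, the alpha chain of VLA-4, was lower with the Notch1 mutant. It stood at 31.7, 27.6 and 28.7 FPKM in combined, 31.0, 26.0 and 23.3 in Notch1-titled, 41.2, 28.3 and 35.05 in Zmiz1-titled and 45.8, 41.9 and 39.9 in control libraries. The 3 control libraries and Zmiz1-titled replicate 1 were the highest, at 39.9 FPKM or more. Zmiz1-titled replicate 2, the library with the lowest estimated depth, lay among the low values. Itga4 fell in Notch1-titled against control libraries, with means of 26.8 ± 3.92 and 42.5 ± 2.99 FPKM (SD, n = 3 each), a log2 difference of -0.66 (SE 0.13) and a limma adjusted p of 0.0178. It was lower in combined than in control libraries by -0.52 (adjusted p = 0.0442); these comparisons share the control libraries. Between combined and Zmiz1-titled libraries the difference was -0.23 (adjusted p = 0.454, groups overlapping), or -0.37 (0.0928) without both libraries that stood apart. Between Zmiz1-titled and control libraries it was -0.29 (adjusted p = 0.396).

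The average Notch1 effect on Itga4 was -0.44 (SE 0.09, limma adjusted p = 0.0118), and it kept its call with each of the 12 libraries left out in turn (adjusted p 0.00293 to 0.0363). The call between Notch1-titled and control libraries was lost without control replicate 1 or 2 or Notch1-titled replicate 2 or 3 (adjusted p 0.0607 to 0.0753). The call between combined and control libraries was lost without any control or combined library, Zmiz1-titled replicate 3 or Notch1-titled replicate 2 (adjusted p 0.0628 to 0.164), and with no filter on low values (0.0659). The test of whether the Notch1 effect differed with and without Zmiz1 gave 0.43 for Itga4 (unadjusted p = 0.046, adjusted p = 0.999).

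Itgb7, the beta chain of the gut homing integrin, was lower in libraries with the Zmiz1 vector. It stood at 3.06, 3.06 and 2.99 FPKM in combined, 4.23, 4.40 and 4.03 in Notch1-titled, 3.21, 3.78 and 3.86 in Zmiz1-titled and 4.19, 4.71 and 5.37 in control libraries. All 6 libraries with Zmiz1 lay below the 6 without it, and the combined libraries were the lowest of all. Itgb7 fell in combined against control libraries, with means of 3.04 ± 0.0413 and 4.76 ± 0.591 FPKM (SD, n = 3 each), a log2 difference of -0.51 (SE 0.08) and a limma adjusted p of 0.00505. That call held with each of the 12 libraries left out (adjusted p 0.00428 to 0.0258).

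With single vectors exchanged, the Itgb7 differences did not pass the threshold. They were -0.32 between Zmiz1-titled and control libraries (limma adjusted p = 0.108) and -0.37 between combined and Notch1-titled libraries (0.0663), where leaving out 1 library gave 0.0469 to 0.234, passing only without Zmiz1-titled replicate 2. The average effect of the Zmiz1 vector, the mean of these 2 differences and also chosen after seeing the data, was -0.34 (SE 0.06, adjusted p = 0.00768), with 3.32 ± 0.388 FPKM in the 6 libraries with Zmiz1 and 4.49 ± 0.490 in the 6 without (SD, n = 6 each). It held with each of the 12 libraries left out (adjusted p 0.00581 to 0.0264). The average Notch1 effect on Itgb7 was -0.16 (adjusted p = 0.106).

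Itgb1, the beta chain of VLA-4 and of the laminin receptor, stayed within 14.04 to 17.5 FPKM in all 12 libraries. Its mean was 16.2 ± 0.825 FPKM in combined, 16.3 ± 1.02 in Notch1-titled, 15.2 ± 1.13 in Zmiz1-titled and 14.7 ± 0.496 in control libraries (SD, n = 3 each). The log2 difference was 0.14 between Notch1-titled and control libraries (95% interval -0.01 to 0.29, limma adjusted p = 0.293) and 0.09 between combined and Zmiz1-titled libraries (adjusted p = 0.581). The average Notch1 effect was 0.12 (adjusted p = 0.155, and 0.0410 without both libraries that stood apart). The ratio of Itgb7 to Itgb1 was 0.188 ± 0.00983 in combined, 0.259 ± 0.0157 in Notch1-titled, 0.239 ± 0.0320 in Zmiz1-titled and 0.325 ± 0.0499 in control libraries, lowest in the libraries with both vectors.

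Itga6, the laminin receptor chain, had results that depended on the libraries that stood apart. It stood at 30.3, 31.4 and 33.6 FPKM in combined, 40.8, 41.2 and 29.7 in Notch1-titled, 26.9, 34.4 and 28.8 in Zmiz1-titled and 30.0, 30.1 and 31.8 in control libraries. Notch1-titled replicates 1 and 2 were the highest of all 12, while Notch1-titled replicate 3, a library that stood apart, was below the lowest control library. The difference between Notch1-titled and control libraries was 0.26 (limma adjusted p = 0.293) with all libraries and 0.41 (0.0435) without Notch1-titled replicate 3, or 0.41 (0.00367) without both libraries that stood apart. Without both libraries that stood apart, Itga6 was lower in combined than in Notch1-titled libraries by -0.36 (adjusted p = 0.0126), against -0.21 (0.745) with all libraries. Those fits leave the Notch1-titled group 2 libraries, which are assumed to vary like the other groups.

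Itgav, an alpha chain of vitronectin receptors, was low and even, with 4.35 to 5.31 FPKM in all 12 libraries and group means of 4.46 ± 0.190 in combined, 4.73 ± 0.464 in Notch1-titled, 4.72 ± 0.516 in Zmiz1-titled and 4.77 ± 0.423 in control libraries (SD, n = 3 each). The 4 groups overlapped. Itgae, the partner of Itgb7 on epithelium-resident T cells, lay between 0.0592 and 0.254 FPKM. Itgb3 was listed at 0 in 3 libraries and reached at most 0.0277 FPKM. Neither gene was called in any comparison in the fit without the filter, and at these levels no fold change is given.

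Of 26 integrin subunits on the member list and on a list of the other subunits, 10 had a mean of at least 1 FPKM. Itga9, an alpha chain that pairs with Itgb1, was the other clearly expressed subunit, with 9.12 to 11.5 FPKM and overlapping groups. Itgb4, the epithelial partner of Itga6, was near the filter, at 0.899, 0.951 and 0.968 FPKM in combined, 1.21, 1.53 and 1.39 in Notch1-titled, 1.12, 0.645 and 1.06 in Zmiz1-titled and 1.35, 1.61 and 1.64 in control libraries. All 6 libraries with Zmiz1 were below the 6 without it. Itgb4 fell with the Zmiz1 vector on average by 0.34 (log2, limma adjusted p = 0.0301); 7 of the 12 libraries ended this call when left out (adjusted p 0.0574 to 0.0840): control replicates 2 and 3, Notch1-titled replicates 2 and 3 and each combined library. The remaining 14 subunits stayed at or below 0.263 FPKM, and 2 of them were at 0 in all 12 libraries.

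Counted over the members tested, Notch1-titled against control libraries had 1 integrin higher (Itgal) and 1 lower (Itga4) of 7, Itgam left out. Of all 10152 genes 5.49% were called there, 3.19% higher and 2.3% lower. In the same comparison 4 of the 7 had groups that did not overlap, against 26.1% of all genes. Combined against control libraries had 2 of 7 lower (Itga4 and Itgb7), with 6.46% of all genes called and 2.49% called lower. Notch1-titled against Zmiz1-titled libraries had 1 of 7 higher (Itgal), with 10.9% called and 6.56% called higher. By limma 0 of 7 members were called between combined and Zmiz1-titled libraries, against 3.86% of all genes, and 2 had an unadjusted p under 0.05, against 15.8% of all genes. Between Zmiz1-titled and control libraries 0 of 8 were called (2.11% of all genes) and 1 passed unadjusted (12.8%). Between combined and Notch1-titled libraries 0 of 8 were called by limma (1.51% of all genes) and 1 passed unadjusted (9%). The average Notch1 effect was called for 2 of 7 members, Itgal higher and Itga4 lower, where 12.8% of all genes were called, 8.17% higher and 4.59% lower. Of the 7, 1 (Itgal) had sets of 6 libraries that did not overlap, against 7.23% of all genes. The average Zmiz1 effect was called for 1 of 8, Itgb7, where 4.35% of all genes were called, 2.3% lower. That 1 gene was also the only member whose sets of 6 did not overlap by Zmiz1, against 3.07% of all genes. The median member difference between Notch1-titled and control libraries was 0.14, and the median of all genes was 0.02. With so few members these counts describe single genes and not the family.

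No member was called for non-additivity, the test of whether the Notch1 difference with Zmiz1 departs from that without it. By limma 0 of 7 members and 0.069% of all genes passed, and 1 of 7 members (Itga4) and 3.27% of all genes had an unadjusted p under 0.05. The vector gene Zmiz1 was itself among the genes that passed (-0.56, limma adjusted p = 0.0266). It averaged 49.3 FPKM in combined and 70.8 in Zmiz1-titled libraries (adjusted p = 0.000312), so the groups with Zmiz1 did not carry it at an equal level. Itgam, as a description, had a non-additivity of 0.16. With 3 libraries in each of a pair of groups, exact permutation could reach a p of 0.1 at best. Each pairwise call therefore rests on limma's model of the spread, which pools the 4 groups and borrows from other genes.

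**Figure D3:**
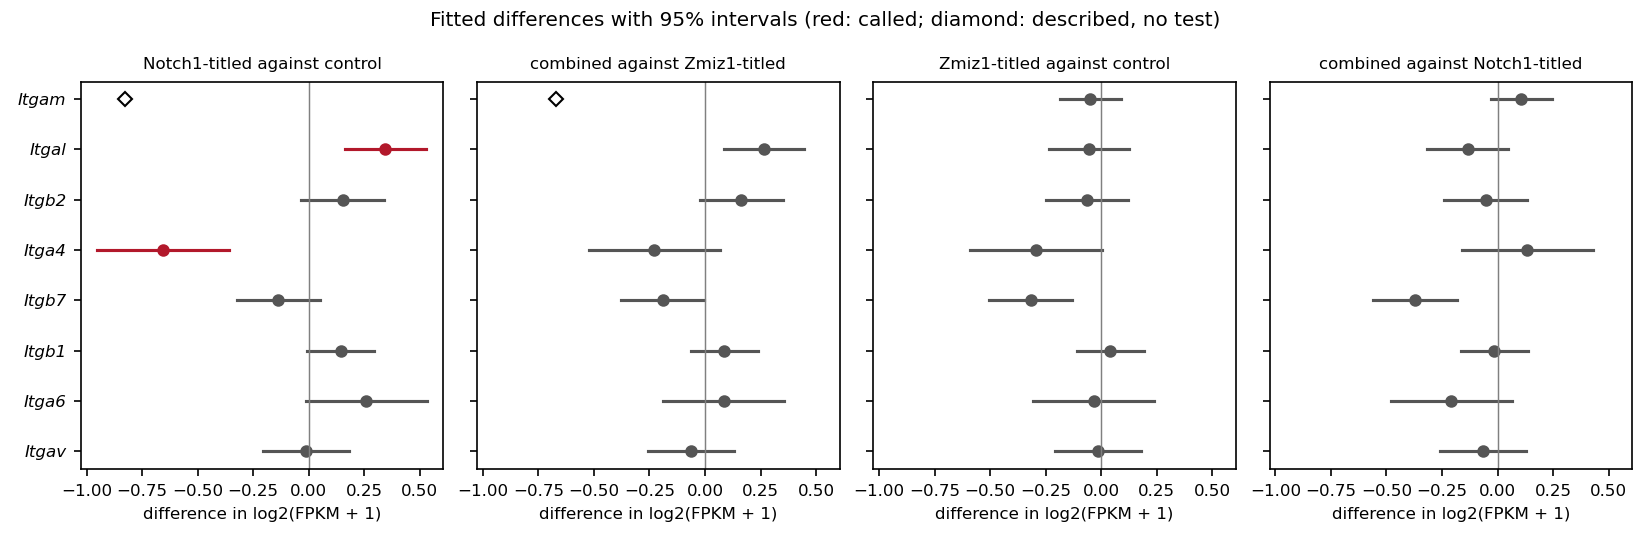
Difference in log2(FPKM + 1) for 8 integrin genes in 4 comparisons, first-named group minus second, with 95% intervals not adjusted for the number of genes (lines). Red marks genes called at an adjusted p of 0.05, which are Itgal and Itga4 in Notch1-titled against control libraries, and open diamonds mark Itgam where no test was made.

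The 5 genes whose pattern over the 12 libraries was most like that of Itgam, by Pearson correlation of log2(FPKM + 1) among 10151 genes, were Scml4 (0.976), Abcg1 (0.976), Slc12a7 (0.972), Pnpla7 (0.967) and Wdr12 (0.966). The points share libraries and fall into a low and a high set by the Notch1 vector, so the correlation is used here only to rank likeness. Scml4, a Polycomb-group-like gene, averaged 42.4 ± 0.639 FPKM in combined, 43.1 ± 3.96 in Notch1-titled, 59.95 ± 0.652 in Zmiz1-titled and 65.6 ± 1.31 in control libraries. Abcg1, a cholesterol efflux transporter, averaged 11.7 ± 0.553 FPKM in combined, 11.4 ± 0.788 in Notch1-titled, 16.7 ± 0.518 in Zmiz1-titled and 17.3 ± 0.635 in control libraries. Slc12a7 encodes a potassium chloride cotransporter, Pnpla7 a lysophospholipase and Wdr12 a ribosome assembly factor. Each was likewise lower in both groups with the mutant, which follows from the choice by likeness to Itgam. Among the members, Itga4 had a correlation of 0.83 with Itgam and Itgal one of -0.80, the highest and the lowest.

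**Figure D4:**
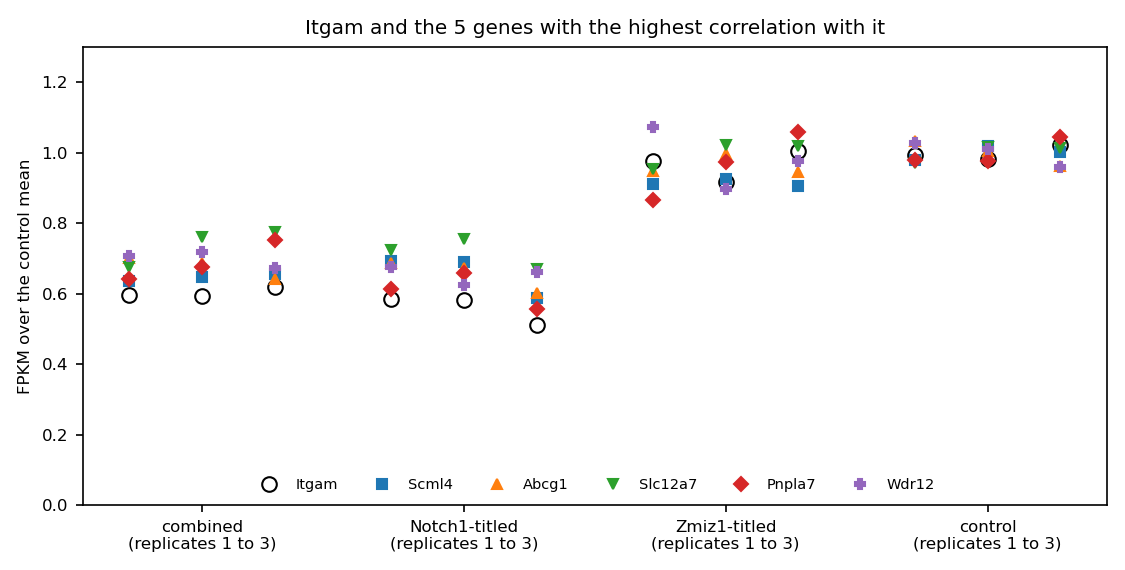
FPKM of Itgam and of the 5 genes with the highest correlation with it, each divided by its mean in control libraries, per library in 4 groups. All 6 genes are lower in the 6 libraries with the Notch1 mutant than in the 6 without it, which follows from how they were chosen.

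The genes that switch integrins on were examined as a list of 18 inside-out activators, 16 of which were tested. For the average Notch1 effect, 2 rose and 2 fell among the 16 (12.8% of all genes called), with a list median of -0.08 and a median of 0.02 over all genes. Rasgrp2, an exchange factor for Rap1, rose by 0.40 (limma adjusted p = 0.00321), with 17.5 ± 2.38 FPKM in libraries with the mutant and 13.1 ± 2.20 in those without (SD, n = 6 each, also for the averages below). Tln2, a talin that is minor in blood cells, rose by 0.50 (adjusted p = 0.00514), with 4.18 ± 0.738 FPKM with the mutant and 2.65 ± 0.339 without; the main talin of blood cells, Tln1, lay between 43.7 and 72.7 FPKM. Stk4, the kinase Mst1 that acts with Rap1 in lymphocyte adhesion, fell, with 139 ± 11.7 FPKM with the mutant and 175 ± 12.7 without (-0.33, adjusted p = 0.00121). Those 3 calls held with each of the 12 libraries left out. Apbb1ip, the Rap1 effector RIAM, fell by 0.15 (adjusted p = 0.0222), a call lost without any control library or combined replicate 2 (0.0506 to 0.0643).

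Pairwise, 1 of the 16 activators rose and 1 fell in Notch1-titled against control libraries, with 5.49% of all genes called. Rasgrp2 rose by 0.37 (limma adjusted p = 0.0452), a call that held with only Zmiz1-titled replicates 2 and 3 and Notch1-titled replicate 1 left out in turn, and that was also lost with no filter on low values (0.0646), after quantile normalization (0.0516), with only these groups in the fit (0.0601) and without both libraries that stood apart (0.0772). Stk4 fell by 0.34 (adjusted p = 0.0160), a call lost without any control library (0.0541 to 0.0677) and with only these groups in the fit (0.0689). In combined against Zmiz1-titled libraries 2 rose, Rasgrp2 and Tln2, and 1 fell, Stk4 (3.86% of all genes called). Their adjusted p values were 0.0340, 0.0436 and 0.0242, and each call was lost without any combined library or Zmiz1-titled replicate 1 or 2, and for Tln2 and Rasgrp2 without others too, with adjusted p up to 0.165. With only these groups in the fit all 3 calls ended (adjusted p 0.1601 for Rasgrp2, 0.0500096 for Tln2 and 0.0533 for Stk4). With no filter the calls for Rasgrp2 (0.0515) and Tln2 (0.0714) ended, and without both libraries that stood apart that for Rasgrp2 (0.0956). None of the 16 was called by limma between combined and control libraries (6.46% of all genes called), where 6 had an unadjusted p under 0.05, against 19.1% of all genes. Between combined and Notch1-titled libraries limma likewise called 0 of the 16 (1.51% of all genes), and 3 passed unadjusted (9%). Notch1-titled against Zmiz1-titled libraries had 2 activators higher and 2 lower, with 10.9% of all genes called. Rasgrp2 rose by 0.72 (limma adjusted p = 0.000658) and Tln2 by 0.64 (0.00878). Stk4 fell by 0.50 (0.000897) and Rasgrp1 by 0.42 (0.00238). These calls held with each library left out, but those for Tln2 (0.0914) and Rasgrp1 (0.0641) ended with only these groups in the fit.

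Both RasGRP exchange factors on the list also changed with the average Zmiz1 effect, in opposite directions (1 of 16 activators higher and 1 lower, 4.35% of all genes called). Rasgrp1, which links the T cell receptor to Ras, rose in Zmiz1-titled against control libraries, with 301 ± 24.3 and 234 ± 1.55 FPKM (0.36, limma adjusted p = 0.0209, 1 of 16 activators called and 2.11% of all genes). Its average Zmiz1 effect was 0.31 (adjusted p = 0.00348) and held with each library left out, while the pairwise call was lost without any control library (0.0706 to 0.1001), after quantile normalization (0.0760) and with only these groups in the fit (0.119). The average Zmiz1 effect on Rasgrp2 was -0.33 (adjusted p = 0.0181), a call lost without control replicate 2 or 3, Notch1-titled replicate 2 or combined replicate 1 (0.0524 to 0.0586) or both libraries that stood apart (0.0505). Fermt3, the kindlin of blood cells, lay between 75.4 and 98.1 FPKM and Rap1a between 120 and 144 FPKM, with no call for either.

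Of the integrin inhibitors and recycling genes, 15 of 16 were tested, and 1 fell with the average Notch1 effect, where 12.8% of all genes were called and 4.59% called lower. This was Cytip, which binds cytohesin and restrains LFA-1 adhesion, with 17.7 ± 1.80 FPKM in libraries with the mutant and 24.1 ± 3.07 in those without (-0.43, limma adjusted p = 0.00981, held with each library left out). In Notch1-titled against Zmiz1-titled libraries Itgb1bp1, the inhibitor ICAP-1, rose by 0.23 (limma adjusted p = 0.0177, 1 of 15 called, against 10.9% of all genes). That call was lost without Notch1-titled replicate 3 (0.0531), with only these groups in the fit (0.158) and without both libraries that stood apart (0.0583). Among 20 of 27 outside-in signaling and cytoskeletal genes tested, 1 fell and 1 rose with the average Notch1 effect, against 4.59% of all genes called lower and 8.17% called higher. Ptk2b, the focal adhesion kinase Pyk2 of leukocytes, fell, with 57.9 ± 6.01 FPKM with the mutant and 84.9 ± 11.5 without (-0.54, adjusted p = 0.00161, held with each library left out). Ptk2, the related kinase FAK, rose by 0.19 (adjusted p = 0.0483), a call that every left-out library but Zmiz1-titled replicate 3 and Notch1-titled replicate 3 ended (0.0571 to 0.109). It was also lost with no filter (0.0786), with a filter at a mean of 5 FPKM (0.0584), after median ratio scaling (0.0791) and with robust variances (0.0561).

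The average Zmiz1 effect raised 1 and lowered 1 of the 20 signaling genes, with 4.35% of all genes called. Fyn, a Src family kinase, rose by 0.23, with 19.4 ± 1.24 FPKM in libraries with Zmiz1 and 16.4 ± 0.456 in those without (limma adjusted p = 0.00980, held with each library left out). Parvg, the parvin of blood cells, fell by 0.19 (adjusted p = 0.0245), a call that 6 left-out libraries ended: each control library, Notch1-titled replicate 2 and combined replicates 1 and 3. In Notch1-titled against Zmiz1-titled libraries, which differ in both vectors, 2 of the 20 rose and 3 fell (10.9% of all genes called). Ptk2b fell by 0.72 (adjusted p = 0.00275) and Fyn by 0.29 (0.0102), and both calls held with each library left out but were lost with only these groups in the fit (0.0553 for Ptk2b and 0.164 for Fyn). Ptk2 rose by 0.29 (limma adjusted p = 0.0367) and Nedd9 fell by 0.27 (0.0252). Single left-out libraries ended these calls (10 for Ptk2 and 3 for Nedd9), as did a fit of only these groups. The Ptk2 call was also lost with no filter (0.0592) and after median ratio scaling (0.0571). The Nedd9 call was also lost without both libraries that stood apart (0.0565). The other signaling gene that rose in this comparison had a smaller change than those named here.

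Few ligand genes were expressed. Of 22, 6 averaged 1 FPKM or more and were tested, among them the LFA-1 ligands Icam1 at 7.84 to 12.1 FPKM and Icam2 at 41.2 to 53.1 FPKM, neither of them called. Vcam1, the ligand of VLA-4, was listed at 0 in all 12 libraries. Pecam1, an adhesion molecule known to bind an Itgav integrin, fell with the average Notch1 effect (1 of 6 called, against 12.8% of all genes), with 91.7 ± 7.40 FPKM with the mutant and 117 ± 13.6 without (-0.34, limma adjusted p = 0.0180, at most 0.0481 with 1 library left out). Zmiz1-titled replicate 2, at 90.9 FPKM, lay among the libraries with the mutant.

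Among transcription factors linked to leukocyte integrin genes, 7 of 14 were tested and 1 fell with the average Notch1 effect (12.8% of all genes called, 4.59% called lower). Runx2, a RUNX family factor, stood at 11.2, 9.77 and 10.2 FPKM in combined and 10.3, 8.91 and 8.40 in Notch1-titled libraries. It stood at 13.6, 11.5 and 12.6 FPKM in Zmiz1-titled and 14.6, 12.7 and 13.8 in control libraries. Whether any RUNX factor acts on an integrin gene here was not tested. All 6 libraries with the mutant lay below the 6 without it. The average effect was -0.39 (limma adjusted p = 0.00239), and the difference between Notch1-titled and control libraries was -0.53 (adjusted p = 0.00558, at most 0.0308 with 1 library left out). Runx1, the most abundant RUNX factor here at 43.0 to 67.3 FPKM, was not called, and Runx3 stayed at or below 0.117 FPKM. Cebpa was listed at 0 in all 12 libraries and Cebpb lay between 2.00 and 4.84 FPKM. Whether the summed T cell list, which was highest in Notch1-titled libraries, had a part in any of these differences was not tested.

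**Figure D5:**
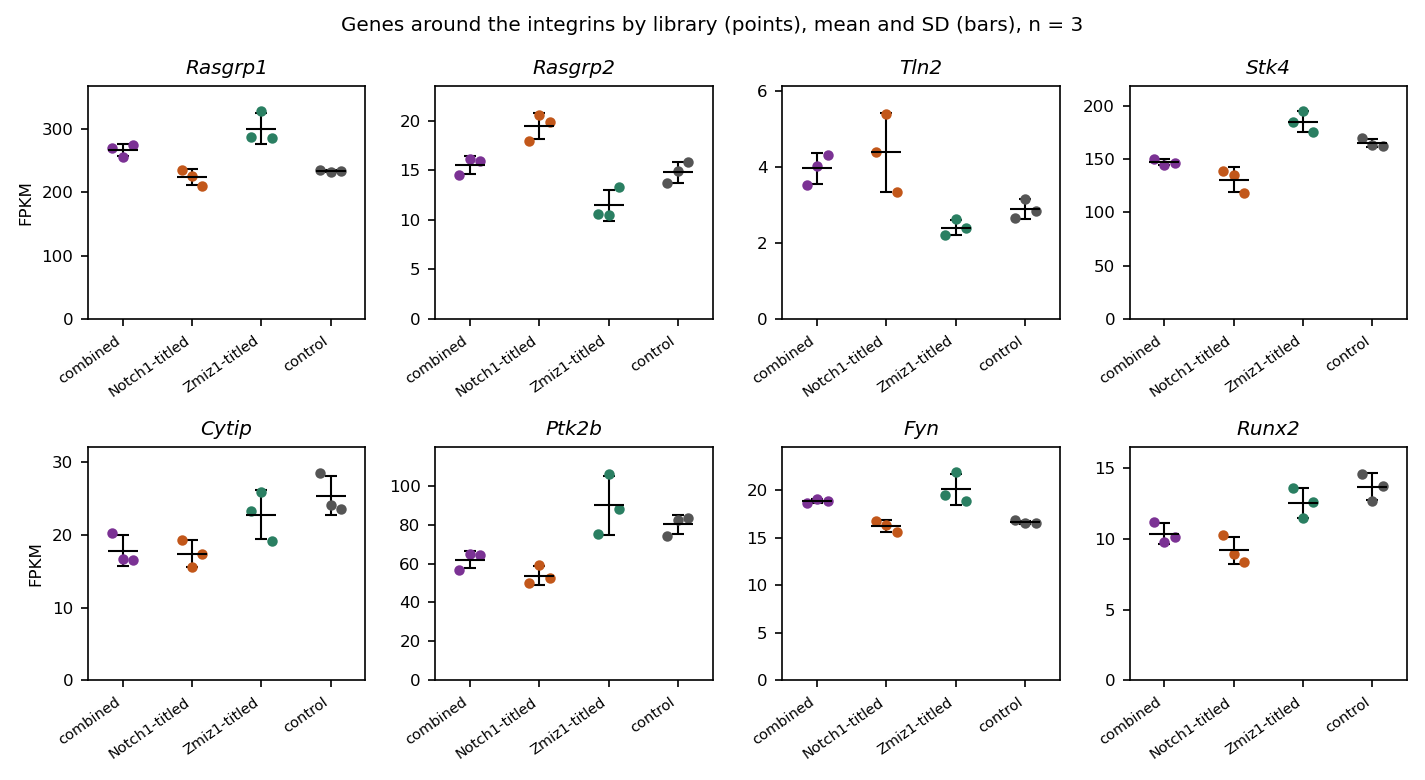
FPKM of 8 genes around the integrins (vertical axis, a separate scale per gene) in each library (points) with the group mean and SD (bars, n = 3). Stk4, Ptk2b and Runx2 are lower and Tln2 is higher in the groups with the Notch1 mutant, and Rasgrp1 and Fyn are higher in the groups with Zmiz1.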

How the data were processed

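The deposited values are FPKM, 1 per gene symbol and library, per the file headers. Per the labels' protocols, RNA of sorted cells went into the unstranded TruSeq mRNA v2 protocol. The submitters' processing notes name mm10, Cuffdiff 2.1.1 and Cufflinks, Bowtie2 2.1.0.0 and TopHat2 2.0.9, and FastQC 0.10.0. The annotation and any scaling between libraries are not given in the sources used here, and reads of overlapping antisense genes cannot be told apart. The files hold no counts, so no counting intervals are given.

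Groups follow the titles. A single limma model (3.58.1, R 4.3.3) with an intensity trend held the 4 group means of log2(FPKM + 1) for genes averaging 1 FPKM or more. Tests were two-sided, with Benjamini-Hochberg adjustment over 10152 genes and a threshold of 0.05; "called", "rose" and "fell" refer to it. Fold changes understate those of genes near 1 FPKM.

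The members and lists were chosen with earlier results of these data known. Named genes were all members, the vector genes, up to 4 called genes of each list and comparison with the largest change, and the 5 genes most correlated with Itgam. Other genes named, such as Sfpi1, Tln1, Icam1, Vcam1, Runx1 and the markers, were picked after their values were seen. Several pairwise calls were not described above. In Notch1-titled against control libraries they were Pecam1, Cytip and Ptk2b, ended by 8, 8 and 4 of the left-out libraries. Cytip and Runx2 in combined against control libraries were ended by 7 and 5, and Ptk2b in combined against Zmiz1-titled libraries by 7. Runx2 in Notch1-titled against Zmiz1-titled libraries was ended by 1, and by a fit of only these groups (limma adjusted p 0.118). Such fits also ended Ptk2b in combined against Zmiz1-titled (0.157) and Cytip in Notch1-titled against control libraries (0.0556). No filter ended Pecam1 (0.0539) and Cytip against control in Notch1-titled (0.0571) and combined libraries (0.0644). Without both libraries that stood apart, Cytip in Notch1-titled (0.0572) and Ptk2b in combined libraries (0.0678) were ended. Alternatives were pseudocount 0.1, a filter at 5 FPKM or none, quantile normalization, median ratio scaling, robust variances, a replicate block, fits of only the groups compared, and each library left out; leaving out both libraries that stood apart and the average effects were added after seeing the data. The code was tested on simulated data.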

Additional observations from a re-analysis of the deposited data

How the results depend on the processing

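Over all alternatives, 21 of 90 member fold changes changed sign, 0 of them called and the largest 0.0644 in size; of the 41 reported, 0 did. Of 1134 recomputed counts of called list genes, 961 stayed within 1.5 times the reported one and 173 moved. Many of the 54 reported counts were 0, so that share does not measure how stable the calls themselves are. Scaling moved the median of all genes by less than 0.1 in each comparison. In Notch1-titled against control libraries 2 members were called, 1 after quantile normalization or with only the groups compared (Itga4 in each), 3 without both libraries that stood apart (adding Itga6), and 0 to 2 with 1 library left out. In combined against control libraries 2 were called, 1 with no filter or with a filter at a mean of 5 FPKM, which drops Itgb7, and 1 to 2 with 1 library left out. In combined against Notch1-titled libraries 0 were called, 1 with only the groups compared (Itgb7), 1 without both libraries that stood apart (Itga6), and 0 to 1 with 1 library left out. In Notch1-titled against Zmiz1-titled libraries 1 was called, 0 with only the groups compared, 3 without both libraries that stood apart, and 1 to 3 with 1 left out (3 without Zmiz1-titled replicate 2, which adds Itgb2 and Itga4, and 2 without Notch1-titled replicate 3, which adds Itga6). The average Notch1 effect was called for 2 members, and for 5 without both libraries that stood apart (adding Itgb2, Itgb1 and Itga6) and 2 to 3 with 1 left out (3 without Zmiz1-titled replicate 2, which adds Itgb2, and without Notch1-titled replicate 3, which adds Itga6, adjusted p = 0.0340); the average Zmiz1 effect for 1, for 0 under the filter at 5 FPKM for 2 without both (adding Itga6) and for 1 with any 1 left out. The counts for combined against Zmiz1-titled, Zmiz1-titled against control and non-additivity stayed at 0 under every alternative. Causes were not tested beyond fewer libraries or genes in a fit.

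Whether replicate numbers pair these libraries is not settled by these values. Correlations of same-numbered deviations from the group means ran from -0.176 to 0.267, and 6 of 18 were over 0.1. For 2 of 12 libraries, the same-numbered library was the best match in every other group. The replicate block gave 1 call in combined against Notch1-titled libraries (Itgb7, adjusted p = 0.0472), 3 in Notch1-titled against Zmiz1-titled libraries (adding Itgb2 and Itga4) and 3 for the average Notch1 effect (adding Itgb2, adjusted p = 0.0250), and it ended the average Notch1 call for Ptk2 (0.0509). For that effect the block called 3 ligands, 3 transcription factors and 2 inhibitors and recycling genes, against 1 each without it, and in Notch1-titled against control libraries 5 activators, against 2. Itga4 and Itgav were highest in replicate 1 of each of the 4 groups. Depth in reads is unknown, so no limit can be set for genes at 0.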
